A study of Homo sapiens with 4 samples.

Results

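The pyrimidine synthesis and thymidylate enzymes were described here as a set of 10 genes, CAD, DHODH, UMPS, CTPS1, CTPS2, UCK2, DCTPP1, DUT, DTYMK and TK1, chosen by symbol from the 23622 genes of the deposited table. All 10 were found, and all 10 passed the filter on low values. RNA was sequenced from MV4-11, a human acute myeloid leukemia (AML) cell line of monocytic type that carries an internal tandem duplication in the receptor gene FLT3. The cells had either no treatment by their labels (NC, which the paper calls sh-NC, a negative control hairpin) or knockdown of IRF1, an interferon regulatory factor, by a short hairpin RNA (sh-IRF1), with 2 libraries in each group. Both groups were otherwise wild type by their labels, and by the study's methods the hairpins were delivered in a lentiviral vector and the cells selected with puromycin. Which hairpin each sh-IRF1 library carried, and whether replicates came from separate cultures, is not given in the sources used here, so p-values measure only the spread between these libraries.

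Pyrimidine nucleotides are made by a de novo route and by salvage. In the de novo route CAD, a multifunctional protein, makes dihydroorotate, DHODH in the inner mitochondrial membrane oxidises it to orotate, and UMPS turns orotate into UMP. CTP synthases then make CTP from UTP, while salvage kinases such as UCK2 and TK1 phosphorylate nucleosides taken up or recycled. For DNA, DUT breaks down dUTP to dUMP, the substrate of thymidylate synthase, and DTYMK phosphorylates the thymidylate that results. DHODH inhibitors drive AML cells to differentiate in culture.

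The values are normalized counts, that is, reads per gene divided by 1 size factor per library. Libraries held from 17635908 to 18695337 reads. Changes (log2 fold changes, log2FC, with standard errors, SE) compare sh-IRF1 with NC on the scale log2(normalized count + 1), tested with limma over 14120 genes, and a gene was called where the Benjamini-Hochberg adjusted p was under 0.05. With 2 libraries against 2, an exact permutation test cannot give a two-sided p below 0.333, and calls depend on limma's estimate of spread, which borrows from all genes. IRF1, the targeted gene, had 785 and 738 normalized counts in NC and 430 and 432 in sh-IRF1, so that 56.6% of the NC level remained. Of 12 markers of monocytic AML, 11 had at least 10 normalized counts in every library. The 12 summed to values from 49650 to 49730 in NC and from 46180 to 46220 in sh-IRF1. The B cell markers with values here, CD79A and PAX5, summed to 51.4 to 54.4 in NC and 209 to 266 in sh-IRF1, and the epithelial markers KRT8 and KRT18 to 254 to 343 in NC and 362 to 392 in sh-IRF1. The erythroid factor KLF1 had 27.7 to 28.8 in NC and 10.3 to 11.9 in sh-IRF1. The summed T cell and fibroblast markers with values reached at most 12.9 and 4.97 normalized counts in a library. The part of these marker differences in the results was not tested. In bulk RNA, fewer cells of a type and less RNA per cell cannot be told apart.

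Of the 10 genes, CAD, CTPS1 and DUT fell in the sh-IRF1 libraries and none was called higher. CAD, at the entry of the de novo route, fell most, to 69.3% of the NC level. CTPS1 and DUT kept 82.7% and 82.3%. The other 7 genes stayed between 93.0% and 106% of the NC level and did not pass the test. Across all genes tested 42.2% were called, 21.9% as lower and 20.3% as higher, so the 3 lower genes of 10 stand beside 21.9% lower and the 0 higher beside 20.3%. limma without adjustment, at p under 0.05, gave 4 genes lower, with UCK2 added, and 0 higher. edgeR and DESeq2 on the recovered reads both gave 3 lower and 0 higher. Of all genes tested, 7.56% were called with a log2FC below -0.5 and 8.27% with one above 0.5, and of the 10 only CAD lay beyond either bound. In 5 of the 10 genes both sh-IRF1 libraries lay below both NC libraries, and in 2 both lay above, beside 35.0% and 34.2% of all genes tested. The median log2FC of the 10 was -0.10, beside -0.0019 over all genes tested.

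**Figure D1:**
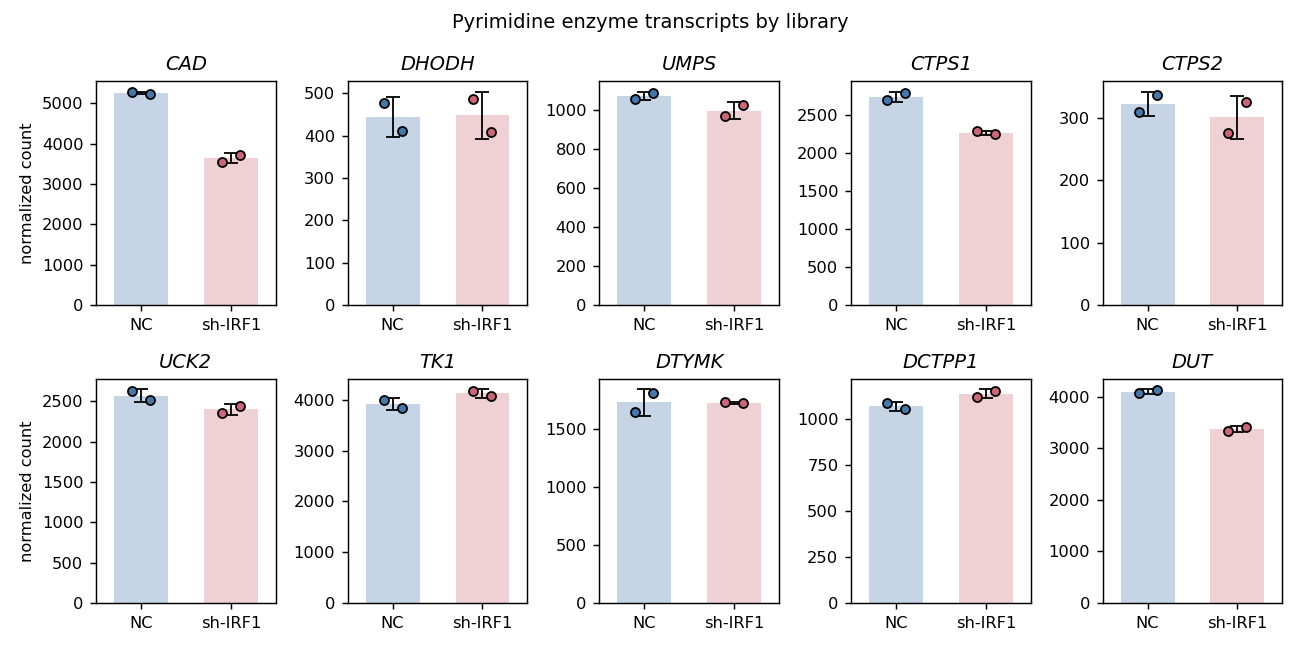
Normalized counts of the 10 genes, with NC in blue and sh-IRF1 in red; points are single libraries, bars are means and error bars are SDs (n = 2), and each panel has its own vertical axis from 0. CAD, CTPS1 and DUT show both sh-IRF1 points well under both NC points, while the DHODH, CTPS2 and DTYMK points overlap.

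Short stretches before annotated transcript starts are shown for the 3 genes that fell and for the 2 genes whose windows hold the E-box CACGTG, the site bound by MYC and its relatives. They come from RefSeq windows on GRCh38.p14 that run from 250 bases before to 50 bases after a start. The table held 16 windows for the 10 genes, and motifs were searched on both strands. Capitals mark the GC box GGGCGG, here read on its other strand, in CAD and CTPS1, the E2F sites TTTCCCGC or TTTGGCGC in DUT and the E-box in DHODH and DCTPP1.
CAD, chr2:27217249-27217368, + strand, before the first annotated exon: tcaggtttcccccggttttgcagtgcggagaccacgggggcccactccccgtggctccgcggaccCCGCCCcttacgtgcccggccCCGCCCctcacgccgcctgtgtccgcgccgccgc
CTPS1, chr1:40979636-40979665, + strand, in the 5′ UTR of another transcript: tccaggccCCGCCCCGCCCcgcgccctcca
DUT, chr15:48332152-48332181, + strand, in the 5′ UTR of another transcript: ctgGCGGGAAAtttcggtTTTGGCGCgctc
DHODH, chr16:72008573-72008602, + strand, at the first exon's edge: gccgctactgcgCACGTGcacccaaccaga
DCTPP1, chr16:30429801-30429830, - strand, partly in the 5′ UTR of another transcript: gcgttttggggagggttcctcCACGTGgtc
The E-box occurred in 2 of the 16 windows, those of DHODH and DCTPP1, and in 7.26% of all 35116 windows. Whether it goes with the calls was not tested. E2F sites, searched as TTTCCCGC, TTTGGCGC, TTTCGCGC and TTTGCCGC, were found in 1 of the 16 windows, of DUT, where they begin 42 and 27 bases upstream of the transcript start in the 4th of its windows, and in 3.31% of all windows. The GC box was in 12 of the 16 windows, from 9 of the 10 genes, and in 15786 of the 35116. CCAAT was in 5 of the 16 windows, each of another gene, and in 34.6% of all. The IRF motif, GAAA repeated after any 2 bases, occurred in 0 of the 16 windows and in 3.57% of all windows. A match is a string of letters and not a bound site. Sites outside these windows, including those more than 50 bases after a start, were not searched. A gene without a match here, CAD among them for the E-box, may therefore hold one elsewhere.

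CAD (ENSG00000084774) encodes the protein that holds carbamoyl phosphate synthetase, aspartate transcarbamoylase and dihydroorotase. In the GENCODE 44 annotation of GRCh38 it lies on chromosome 2 from 27217369 to 27243943, and no other gene shares its exonic bases. Its normalized counts were 5277 and 5228 in NC and 3552 and 3723 in sh-IRF1. Both sh-IRF1 libraries lay far below both NC libraries, and the groups did not overlap. The means were 5252 ± 34.4 and 3637 ± 121 (SD, n = 2 each). The log2FC was -0.53 (SE = 0.0387, limma adjusted p = 6.05e-16), with a 95% interval from -0.61 to -0.45. It ranked at percentile 10.4 of all genes tested, counted from the most lowered. CAD stayed called under all 14 alternatives, but its log2FC came inside the bound of 0.5 without sh-IRF1 replicate 1 (-0.50, rounded) and when scaled by total reads (-0.49).

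The genes of the next steps of the same route, DHODH and UMPS, did not pass the test. DHODH (ENSG00000102967; chromosome 16, 72008588 to 72027664) had 478 and 411 normalized counts in NC and 487 and 409 in sh-IRF1. The first library was the higher one in both groups, by a ratio of 1.16 in NC and 1.19 in sh-IRF1, and the group means of 444 ± 47.5 and 448 ± 55.8 (SD, n = 2 each) lay much closer together than the replicates. The log2FC was 0.0099 (limma adjusted p = 0.953), and its 95% interval from -0.21 to 0.23 leaves room for a change of either sign. Its sign turned with 1 library left out, at -0.099 without NC replicate 2 and -0.12 without sh-IRF1 replicate 1.

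UMPS (ENSG00000114491; chromosome 3, 124730433 to 124749273) encodes the bifunctional enzyme that makes UMP. It had 1053 and 1085 normalized counts in NC and 965 and 1024 in sh-IRF1. The groups did not overlap, but neither did those of 69.2% of all genes tested. The log2FC of -0.10 (SE = 0.0686, limma adjusted p = 0.226) had a 95% interval from -0.24 to 0.033. Per length, CAD stood at 4.46 and 4.29 times the level of UMPS in NC and at 3.28 and 3.23 times in sh-IRF1. Against DHODH it stood at 9.05 and 10.4 times in NC and at 5.97 and 7.47 times in sh-IRF1. Against UCK2, described below, it stood at 1.66 and 1.72 times in NC and at 1.25 and 1.26 times in sh-IRF1. In each of these ratios the sh-IRF1 values lay under the NC values. The exact two-sided permutation test gave p = 0.333, the smallest it allows here, so it cannot decide whether the ratios changed. CAD is in each ratio, so its own fall enters all of them.

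The CTP synthases are paralogs that turn UTP into CTP with glutamine as the nitrogen donor. CTPS1 (ENSG00000171793; chromosome 1, 40979300 to 41012565) is the form that dividing lymphocytes depend on. It had 2684 and 2779 normalized counts in NC and 2278 and 2240 in sh-IRF1. Both sh-IRF1 libraries lay below both NC libraries by more than the replicates differed. The means were 2732 ± 67.1 and 2259 ± 26.6 (SD, n = 2 each), log2FC = -0.27 (SE = 0.0468, limma adjusted p = 3.76e-06). Leaving out any 1 library gave values from -0.30 to -0.25.

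CTPS2 (ENSG00000047230; chromosome X, 16587999 to 16712936) had far fewer reads. Its normalized counts were 309 and 336 in NC and 276 and 325 in sh-IRF1. One sh-IRF1 library lay within the NC range, so the groups overlapped. Its log2FC was -0.11 (limma adjusted p = 0.532), with a 95% interval from -0.36 to 0.15 that holds the value of CTPS1. It was 0.014 without sh-IRF1 replicate 1. The ratio of CTPS1 to CTPS2 per length was 4.02 and 3.83 in NC and 3.82 and 3.19 in sh-IRF1. Both sh-IRF1 values lay under both NC values, the closest pair by little, and with 2 libraries a group the exact permutation test cannot tell whether the paralogs differ in response.

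Neither salvage kinase passed the test. UCK2 (ENSG00000143179; chromosome 1, 165827614 to 165911618) phosphorylates uridine and cytidine and also activates cytotoxic nucleoside analogs. It had 2626 and 2517 normalized counts in NC and 2353 and 2446 in sh-IRF1, groups that did not overlap. Its log2FC was -0.10 (SE = 0.0473, limma adjusted p = 0.0859), with a 95% interval, not adjusted for the number of genes, from -0.19 to -0.0044. Other genes cover 8.75% of its exonic bases.

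TK1 (ENSG00000167900; chromosome 17, 78174091 to 78187233), the cytosolic thymidine kinase whose level peaks in S phase, had 4007 and 3837 normalized counts in NC and 4183 and 4069 in sh-IRF1. Both sh-IRF1 libraries were the higher ones, by less than the difference that limma could call. Its log2FC was 0.073 (SE = 0.0399, limma adjusted p = 0.138), with a 95% interval from -0.0070 to 0.15. Scaled by total reads instead of the deposited size factors it became 0.12 (limma adjusted p = 0.0132), a scaling that moved the median of all genes to 0.042.

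DTYMK (ENSG00000168393; chromosome 2, 241675747 to 241686944) phosphorylates thymidylate from both thymidine kinase and thymidylate synthase. Its normalized counts were 1650 and 1810 in NC and 1735 and 1721 in sh-IRF1. Both sh-IRF1 libraries lay between the NC libraries. The means of 1730 ± 113 and 1728 ± 9.58 (SD, n = 2 each) gave log2FC = -0.00027 (SE = 0.0557, limma adjusted p = 0.997) and a 95% interval from -0.11 to 0.11. Its sign turned under total-read, TMM and upper-quartile scaling. Per length, TK1 stood at 3.16 and 2.76 times the level of DTYMK in NC and at 3.135 and 3.07 times in sh-IRF1. For this ratio the groups overlapped.

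Of the 2 enzymes that clear nucleotides from the pool, DUT was called lower and DCTPP1 was not called. DUT (ENSG00000128951; chromosome 15, 48331011 to 48343373) encodes the dUTPase, in nuclear and mitochondrial forms that start at different first exons and that a count per gene cannot separate. Its normalized counts were 4068 and 4133 in NC and 3334 and 3419 in sh-IRF1. Both sh-IRF1 libraries lay below both NC libraries by several times the replicate difference. The means were 4101 ± 45.8 and 3377 ± 59.9 (SD, n = 2 each), log2FC = -0.28 (SE = 0.0404, limma adjusted p = 1.21e-07). Leaving out any 1 library gave values from -0.30 to -0.26. The antisense gene DUT-AS1 covers 14.5% of its exonic bases, and the pseudogenes DUTP2 and DUTP6 had reads that came to 0.547% of its own.

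DCTPP1 (ENSG00000179958; chromosome 16, 30423615 to 30430030) hydrolyses dCTP and modified forms of it. It had 1084 and 1052 normalized counts in NC and 1119 and 1153 in sh-IRF1, and the groups did not overlap. Its log2FC was 0.089 (SE = 0.0662, limma adjusted p = 0.291), with a 95% interval from -0.044 to 0.22. Since 41.2% of its exonic bases lie in ZNF771 on the opposite strand, and the use of strand in counting is not given in the sources used here, its reads are uncertain. The ratio of DUT to DCTPP1 per length was 1.60 and 1.67 in NC and 1.27 and 1.26 in sh-IRF1 (exact two-sided permutation p = 0.333).

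**Figure D2:**
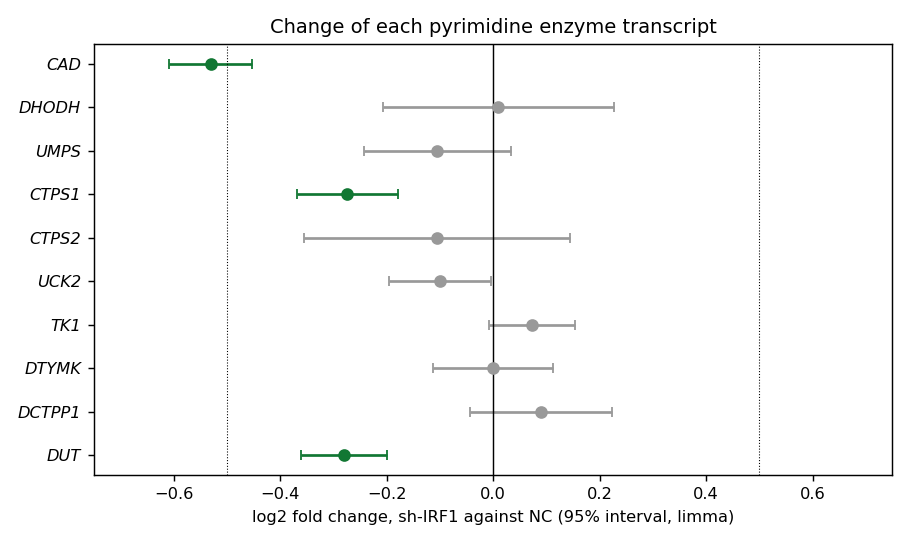
Log2 fold change of sh-IRF1 against NC for the 10 genes, with points as limma estimates, bars as 95% intervals, dotted lines at a log2FC of 0.5 in either direction, and called genes in green. CAD, CTPS1 and DUT lie left of 0 with their whole interval, as does UCK2, which was not called. The interval of CAD is the only one that reaches the dotted line.

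In RPKM, the reads of a gene scaled by its merged exon length and by the library's total reads, TK1 had the highest level of the set, and DHODH and CTPS2 the lowest. For TK1 the mean and SD over 2 libraries were 117 ± 3.77 in NC and 127 ± 2.03 in sh-IRF1. DUT followed at 61.6 ± 0.594 in NC and 52.3 ± 1.11 in sh-IRF1. DTYMK (39.8 ± 2.53) and DCTPP1 (37.7 ± 0.869) in NC could not be ordered, since their libraries overlapped. CAD, with 34.4 ± 0.278 in NC and 24.5 ± 0.899 in sh-IRF1, kept rank 5 in both groups. UCK2, CTPS1 and UMPS came next in that order, at 20.3, 12.6 and 7.86 in NC. DHODH at 3.55 ± 0.384 and CTPS2 at 3.22 ± 0.186 in NC overlapped each other. This order rests on merged exon lengths, which for some genes far exceed the 1 transcript that the annotation marks as canonical. CTPS1 has 11958 merged bases against 2840, DTYMK 2399 against 1051 and CAD 8443 against 7286. The order per canonical transcript was not computed and may differ. Ratios per length given above use the same merged lengths, which cancel when the groups are compared.

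**Figure D3:**
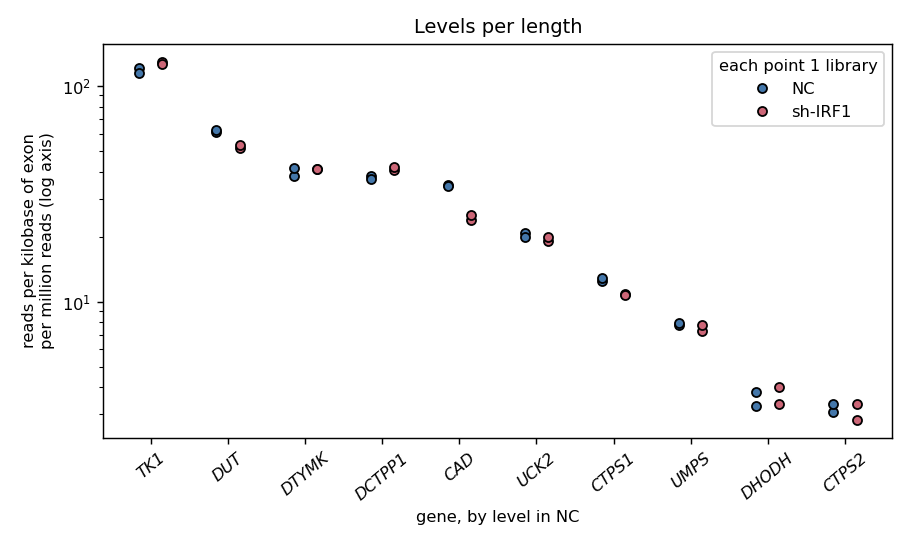
Level of each gene in RPKM, on a log axis, ordered by the NC mean, with each point 1 library and NC in blue and sh-IRF1 in red. The order runs from TK1 at 117 to CTPS2 at 3.22 in NC, and the order of the groups is the same apart from DTYMK and DCTPP1.

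A further 39 genes of pyrimidine metabolism, listed by role, were read in the same fit, and 35 of them had enough reads for the test. At an adjusted p under 0.05, 9 were lower and 7 higher, beside 21.9% and 20.3% of all genes tested. Their median log2FC was -0.071. Beyond a log2FC of 0.5, 1 of the 35 was lower and 3 were higher, beside 7.56% and 8.27% of all genes tested. CDA, which inactivates cytidine analogs, had 0 and 8.22 normalized counts in NC and 3.98 and 3.75 in sh-IRF1 and was not tested, like NT5E, DPYS and UPP2.

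Of the 3 ribonucleotide reductase genes, which supply deoxyribonucleotides, 2 were called higher and 0 lower, beside 20.3% and 21.9% of all genes tested. RRM2, the regulatory subunit of S phase, had 2891 and 2813 normalized counts in NC and 4422 and 4571 in sh-IRF1. Both sh-IRF1 libraries were far above both NC libraries, at log2FC = 0.66 (SE = 0.0412, limma adjusted p = 2.91e-18). The catalytic subunit RRM1 rose less, by a log2FC of 0.15 (adjusted p = 0.00253), and lost the call without NC replicate 1 (0.088, adjusted p = 0.115) and without sh-IRF1 replicate 2 (0.11, adjusted p = 0.142).

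Around thymidylate synthesis, TYMS itself had 968 and 1020 normalized counts in NC and 1079 and 938 in sh-IRF1, with a log2FC of 0.018 (limma adjusted p = 0.869), a 95% interval from -0.13 to 0.16 and 47.9% of its exonic bases shared with genes on the opposite strand. TYMS is named after its values were seen. SHMT2, the mitochondrial serine hydroxymethyltransferase that makes one-carbon units, fell from 7037 and 6888 normalized counts in NC to 5392 and 5205 in sh-IRF1, a log2FC of -0.39 (adjusted p = 2.76e-13). SHMT1, its cytosolic counterpart, rose from 589 and 636 to 734 and 776, a log2FC of 0.30 (adjusted p = 0.00286), and was at 0.26 without sh-IRF1 replicate 2 (adjusted p = 0.0644). The difference between SHMT1 and SHMT2 was not tested. Of the 4 genes in this role, 1 was lower and 1 higher, beside 21.9% and 20.3% of all genes tested. The other 2 did not pass.

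Of the 7 kinases that carry nucleotides to di- and triphosphates, 3 were lower and 0 higher by limma, beside 21.9% and 20.3% of all genes tested. By edgeR, by DESeq2 and by limma at an unadjusted p under 0.05, 0 were higher too. The count of lower genes was 2 without NC replicate 1 and without sh-IRF1 replicate 2, and 1 without sh-IRF1 replicate 1. NME1, named after its values were seen, had a log2FC of -0.25 (limma adjusted p = 0.0156) and lost the call without each of these 3 libraries (adjusted p from 0.0603 to 0.0833). Other genes cover 18.7% of its exonic bases. CMPK1, which phosphorylates CMP and UMP, fell from 5358 and 5473 normalized counts to 4596 and 4680, a log2FC of -0.22 (limma adjusted p = 1.70e-06). NME4, a mitochondrial nucleoside diphosphate kinase, had -0.22 (adjusted p = 0.00116), which became -0.16 without sh-IRF1 replicate 1 (adjusted p = 0.0801), and another gene covers 15.6% of its exonic bases.

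In nucleoside and base salvage 2 genes were lower and 3 higher of 7 tested, beside 21.9% and 20.3% of all genes tested. The lower genes, UCKL1 and TYMP, both lost the call without sh-IRF1 replicate 2 (limma adjusted p = 0.104 and 0.166), which left 0 lower and 3 higher, and UCKL1 also without NC replicate 2 (adjusted p = 0.0703). UCKL1 and TYMP were named after their values were seen. Other genes cover 7.44% and 19% of their exonic bases. UPP1, the uridine phosphorylase that splits uridine to uracil, rose from 57.4 and 61.6 normalized counts to 143 and 156, log2FC = 1.31 (SE = 0.216, limma adjusted p = 1.79e-06). TK2, the mitochondrial thymidine kinase, rose from 643 and 642 to 842 and 915 (log2FC 0.45, adjusted p = 7.46e-06), with 20.1% of its exonic bases shared. Its cytosolic counterpart TK1 had 0.073, and the difference between the kinases was not tested.

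Among genes of breakdown and of deamination, DPYD, the first enzyme of uracil and thymine catabolism, rose from 889 and 889 normalized counts in NC to 1353 and 1384 in sh-IRF1. That was log2FC = 0.62 (SE = 0.0659, limma adjusted p = 6.00e-11). DCTD, which deaminates dCMP to dUMP, fell from 1821 and 1744 to 1460 and 1351 (log2FC -0.34, adjusted p = 2.67e-06). NT5C3A, a nucleotidase for pyrimidine monophosphates, fell from 542 and 510 to 386 and 369 (log2FC -0.48, adjusted p = 0.000138). The other 6 tested nucleotidase and dNTP breakdown genes did not pass. Their log2FC ran from -0.53 in NT5C3B (limma adjusted p = 0.0611) to 0.038 in NT5C2 (adjusted p = 0.686). SAMHD1 was at -0.026. NT5C3B, NT5C2 and SAMHD1 were named after their values were seen.

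SLC25A36, a mitochondrial carrier of pyrimidine nucleotides, had the largest fall of the listed genes. Its normalized counts were 1545 and 1479 in NC and 852 and 881 in sh-IRF1, so that 57.3% of the NC level remained (log2FC -0.80, standard error 0.0652, limma adjusted p = 1.99e-14). The related carrier SLC25A33 had a log2FC of 0.036 (adjusted p = 0.779), and the nucleoside transporter SLC29A1 had -0.014 (adjusted p = 0.863). SLC25A33 and SLC29A1 were named after their values were seen.

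**Figure D4:**
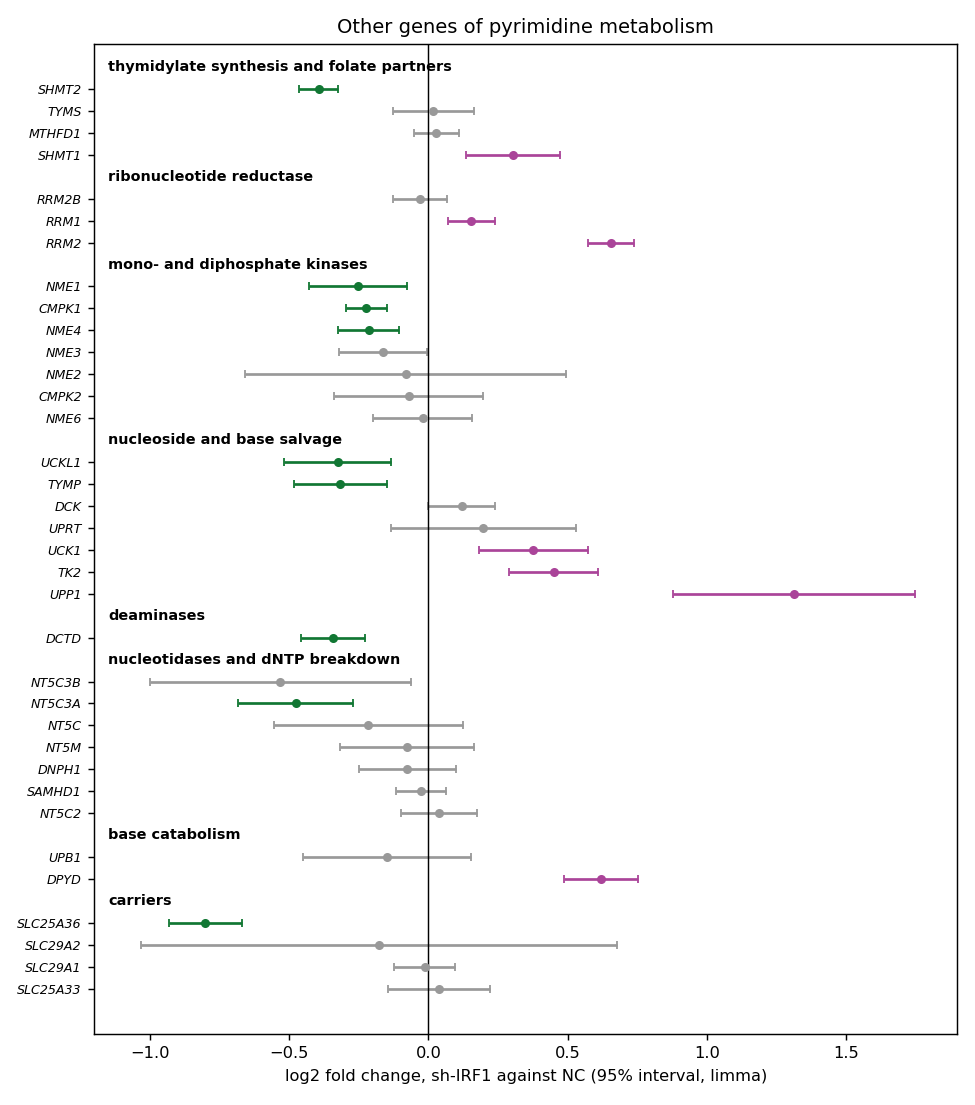
Log2 fold change of sh-IRF1 against NC for the 35 tested genes of the wider list, grouped by role, with points as limma estimates, bars as 95% intervals, lower calls in green, higher calls in purple and the rest in grey. Of the called genes, RRM2 at 0.66, DPYD at 0.62 and UPP1 at 1.31 lie right of 0.5, and SLC25A36 at -0.80 lies left of -0.5.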

How the data were processed

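Total RNA libraries of MV4-11 cells (2 NC, 2 sh-IRF1) were made with a TruSeq kit and sequenced by a service company. The submitters' processing notes name HISAT2 2.0.5 and the build hg38. Neither the counter, nor its gene models, nor its strand setting is given in the sources used here. Each deposited value is a signal per gene that the authors had normalized with 1 size factor for the whole library. All values of each library (100% of 23622) lay within 0.01 of a whole multiple of 1 read's worth, so reads were recovered. The table held 0 other columns of per-sample values.

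Only the 14120 genes that reached 10 in 2 or more libraries were tested with limma 3.58.1 (R 4.3.3, variance trend, robust shrinkage) on log2(value + 1), a scale that understates changes of low genes. edgeR 4.0.16 and DESeq2 1.42.0 on the recovered reads were alternatives, beside other scalings, no filter, pseudocounts of 0.5 and 5, no robust shrinkage, a replicate block and each library left out. Symbols matched 23456 of 23622 identifiers. Positions, merged exon lengths and shared bases came from GENCODE 44, promoter windows from RefSeq. In simulated data for this comparison over 14140 genes, limma recovered 90 of 100 genes changed by a log2 fold change of 0.5 and all 100 changed by 1, and called 12 unchanged genes. The simulation gave all genes 1 common dispersion and changed only 200, each with a mean of at least 100 reads. In the real data 42.2% of genes tested were called, so these figures need not carry over. Changes under 0.5, such as those of CTPS1 and DUT, were not simulated.

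The members and lists were chosen with earlier results of these data known. A gene of the wider list and a cell type marker are not reported here, and the counts leave them out. All members are named, and of the wider list up to 2 called genes a role with the smallest p. With n = 2 the spread of 1 gene is poorly known.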

Additional observations from a re-analysis of the deposited data

How the results depend on the processing

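CAD, CTPS1 and DUT were called lower under all 14 alternatives. Among the 140 values of the 10 genes under an alternative, 130 kept their direction and their side of the threshold. Not all of these are separate checks. The settings without filter, without robust shrinkage and with the replicate block leave each log2 fold change as it was. There only the adjusted p could move, and the pseudocounts moved the fold changes little. Scaled by total reads, 1 of the 10 genes was called higher, TK1 at 0.12. Requiring a log2 fold change beyond 0.5 left 1 of the 10 lower, 1 of the wider list lower and 3 higher, and 1067 of all genes lower and 1168 higher. The sign turned only for 3 genes that were not called. DTYMK was at 0.044 scaled by total reads, 0.0054 with TMM scaling, 0.015 with upper-quartile scaling and 0.0040 with edgeR, and ranged from -0.067 to 0.066 with each library left out. DHODH ranged from -0.12 to 0.14 and CTPS2 from -0.22 to 0.014 with each library left out. The cause was not tested. The replicate numbers showed no pairing in the values, where deviations of the same-numbered libraries from their group means correlated at -0.015 across genes. Whether same-numbered libraries came from paired cultures is not given in the sources used here. With the replicate block, 3 of the 10 genes were lower and 0 higher, as without it, and 3147 of all genes were lower and 2903 higher. Of the other named genes, SHMT1, RRM1, NME1, NME4, UCKL1 and TYMP lost their call with 1 library left out, in the cases given above. The wider list had 9 genes lower and 7 higher, and 6 lower and 5 higher without sh-IRF1 replicate 2. For the least counted genes, CTPS2 and DHODH, the intervals limit what could be seen.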
